A study of Mus musculus with 20 samples.

Results

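Heart ventricle of mice given 17β-estradiol was compared with ventricle of the group titled beta, 5 arrays against 5 of the 20 arrays in the series. The members were chosen by sample title, with earlier results of these data known. Each gene was read from 1 probe set (a set of short probes for 1 transcript), the one with the highest mean over all 20 arrays among those that carry a single gene symbol. All animals were female C57BL/6 mice, ovariectomized when 8 weeks old and then treated for 4 weeks through an implanted osmotic pump. The estradiol group received 17β-estradiol as a cyclodextrin complex. The comparison group is titled beta while its treatment label reads control solution, so what it received is not settled by the labels and it is called the beta-titled group here. The 5 placebo arrays (ovariectomized, placebo solution) are given as background, and the 5 arrays of the receptor α agonist 16α-LE2 are not compared here but entered the choice of probe sets, the expression filter, the means over 20 arrays and the estimate of each gene's spread. No dose is given, and the labels do not say that each array is a separate animal, so the p-values measure the spread between these samples.

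Estradiol acts through the receptors α and β, transcription factors that bind DNA as dimers after taking up the hormone, and ovariectomy removes the main source of that hormone. Target genes carry, or lie near, a palindromic response element, although many are reached through other DNA-bound factors. The ventricle consists by volume mostly of cardiomyocytes, with endothelial cells, fibroblasts, mural cells and macrophages between them, and bulk RNA mixes all of these. In bulk samples fewer cells of a type and less RNA per cell cannot be told apart.

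The tissue label was checked against cardiomyocyte markers, whose mean log2 level over 9 genes was 14.08 to 14.45 on the estradiol arrays and 13.98 to 14.24 on the beta-titled arrays. Estradiol replicate 33 stood apart, with Spearman correlations of 0.882 to 0.923 with the other 19 arrays, which correlated among themselves at 0.958 to 0.992. It lay outside the range of the other 19 arrays for 53.4% of tested genes, against 2.01% to 24.5% for the other arrays, so results are given with and without it. Among the beta-titled arrays, replicates 31 and 32 had the narrowest spread, with an SD of the values on the array of 1.32 and 1.30 log2 units against 1.42 to 1.44 for the other 3. The mean SD per array was 1.41 ± 0.04 for estradiol and 1.38 ± 0.06 for the beta-titled group (SD, n = 5; exact permutation test, two-sided, p = 0.437). As a measure of RNA quality, the 3′ minus 5′ difference of the control probe sets was 0.05 ± 0.07 against 0.07 ± 0.08 log2 units for Gapdh (exact permutation test, p = 0.706) and 0.04 ± 0.11 against 0.08 ± 0.09 for Actb (exact permutation test, p = 0.444; SD, n = 5).

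No gene passed the threshold, a Benjamini-Hochberg adjusted p under 0.05 in limma's moderated test over 12082 tested genes (0% called; smallest adjusted p = 0.213). An unadjusted p under 0.05 was reached by 463 genes (3.83% of those tested), 280 of them higher with estradiol (2.32%) and 183 lower (1.51%). Without estradiol replicate 33 the count at the threshold was again 0 (0% called), and 830 genes (6.87%) had an unadjusted p under 0.05, 690 of them higher (5.71%) and 140 lower (1.16%). For the typical gene the 95% interval reached 0.21 log2 units to either side of its difference, and 0.18 without that array (medians). The median SD of a gene among the estradiol arrays was 0.20 log2 units with replicate 33 and 0.12 without it, against 0.13 in the beta-titled group. No direction of the whole profile can be read from these counts, because the share of higher genes among those with an unadjusted p under 0.05 went from 60.5% to 41.6% after quantile normalization, to 29.3% after centring each array on its median and to 22.9% without beta-titled replicates 31 and 32.

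**Figure D1:**
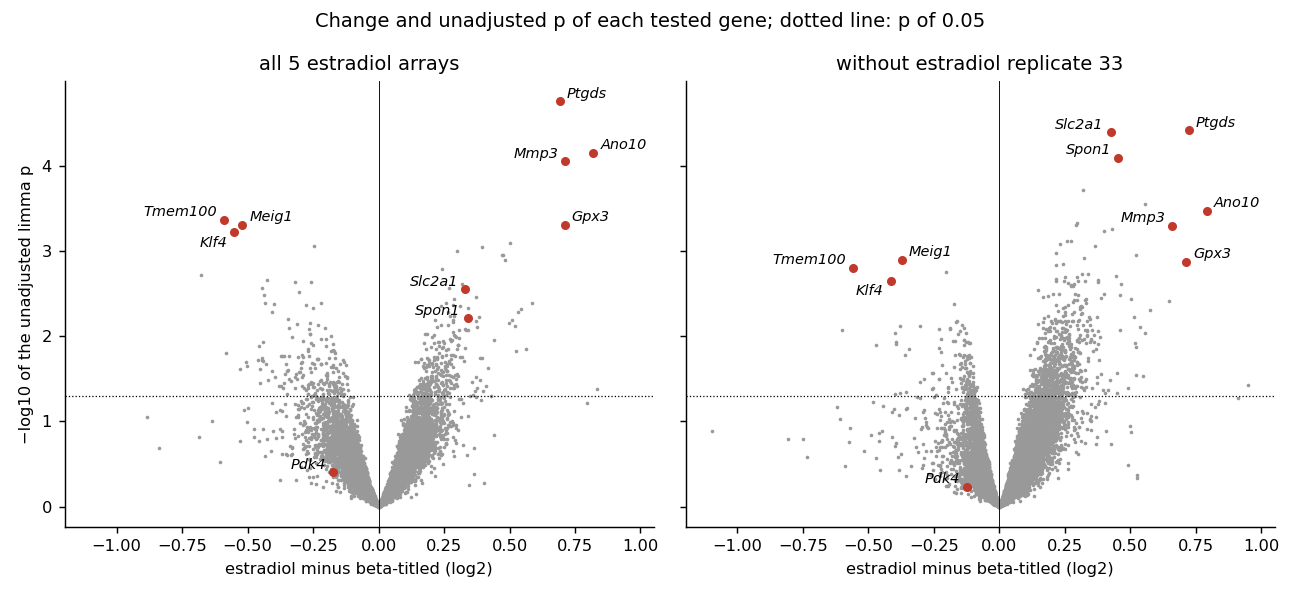
Each point is 1 tested gene, with the difference estradiol minus beta-titled on the log2 scale on the x axis and −log10 of the unadjusted limma p on the y axis, over all arrays (left) and without estradiol replicate 33 (right). Ptgds has the smallest p in both panels, Slc2a1 and Spon1 move up beside it on the right, and no gene passed after adjustment over the 12082 genes.

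The gene of smallest p was Ptgds, which encodes lipocalin-type prostaglandin D synthase and is known as an estrogen-responsive gene of the mouse heart. Its log2 level was 13.51, 13.21, 13.23, 13.36 and 13.48 on estradiol arrays 29, 30, 33, 34 and 35, and 12.80, 12.21, 12.59, 12.93 and 12.81 on beta-titled arrays 31, 32, 33, 35 and 36. All 5 estradiol arrays lay above all 5 beta-titled arrays. The difference was 0.69 ± 0.13 log2 units (SE), or 1.62-fold (95% interval 0.43 to 0.96), with an unadjusted limma p of 1.76e-05 and the adjusted p of 0.213 given above. Placebo arrays ranged from 12.51 to 13.15, below every estradiol array. The other probe set of Ptgds, which the choice of 1 probe set per gene left out, differed by 0.85 log2 units, from a mean of 11.85 to 12.69. Without estradiol replicate 33 the difference was 0.72 (limma adjusted p = 0.245). Single arrays moved its adjusted p between 0.0544, without beta-titled replicate 35, and 0.902, without estradiol replicate 35, while the difference itself stayed at 0.58 to 0.77 over 33 alternative settings.

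Ano10, a membrane protein of the anoctamin family, had the second smallest p. Its level was 10.68, 10.54, 10.91, 10.56 and 11.29 on the estradiol arrays and 9.72, 10.05, 10.18, 10.14 and 9.79 on the beta-titled arrays, in the order above. The groups did not overlap, and the difference was 0.82 ± 0.17 log2 units (SE), or 1.76-fold (limma adjusted p = 0.36). Placebo, at 9.93 to 10.91, spanned both groups. For Mmp3, a secreted matrix protease (stromelysin), the levels were 8.03, 8.08, 8.59, 8.37 and 8.81 with estradiol and 7.59, 7.39, 7.69, 8.23 and 7.40 in the beta-titled group. Beta-titled replicate 35 reached into the estradiol range. The difference was 0.71 ± 0.15 (SE), or 1.64-fold (limma adjusted p = 0.36), and Mmp3 was the 1 gene that passed when that replicate was left out, at 0.86 (limma adjusted p = 0.0305; over all alternatives 0.0305 to 0.999). Gpx3, the secreted glutathione peroxidase, was 1.64-fold higher (0.71 ± 0.18 SE; limma adjusted p = 0.925), with 11.18 to 11.87 on the estradiol arrays and 10.20 to 11.34 on the beta-titled arrays. Ano10, Mmp3 and Gpx3 each had their highest estradiol value on replicate 35, the array that also had the highest level of atrial markers. Those markers averaged 11.61 there, against 9.37 at the lowest of the estradiol arrays and 8.91 to 10.64 on the beta-titled arrays. The part of this in the differences was not tested, but without replicate 35 the differences were 0.70 for Ano10, 0.61 for Mmp3, 0.61 for Gpx3 and 0.66 for Ptgds, each with a limma adjusted p of 0.902.

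**Figure D2:**
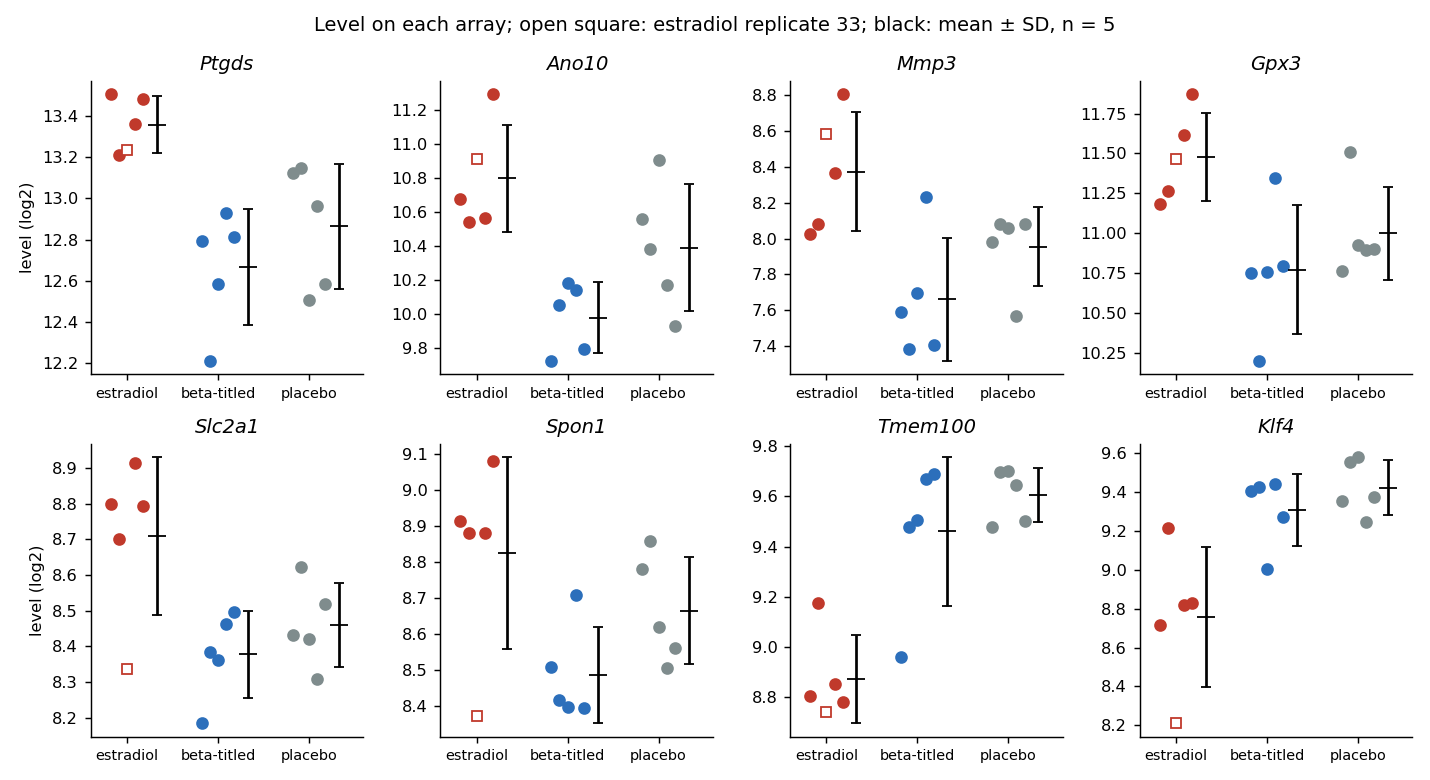
Each point is the log2 level on 1 array (y axis) for 8 genes in the estradiol, beta-titled and placebo groups (x axis), with the mean and SD of 5 arrays in black. The open square is estradiol replicate 33, which lies with its group for Ptgds among the beta-titled arrays for Slc2a1 and just below them for Spon1.

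The promoters of Ptgds, Ano10, Mmp3 and Slc2a1 are shown because these genes had the 3 smallest p over all arrays or, for Slc2a1, the second smallest without estradiol replicate 33. Each runs from 250 bases before to 50 bases after the RefSeq transcription start (GRCm38.p6), written 5′ to 3′ on the gene's strand, with half-sites of the estrogen response element (GGTCA, or TGACC on the opposite strand) in capitals. Their positions are chr2:25469700-25469999 (minus strand) for Ptgds, chr9:122294374-122294673 (minus strand) for Ano10, chr9:7445572-7445871 (plus strand) for Mmp3 and chr4:119108495-119108794 (plus strand) for Slc2a1.
Ptgds: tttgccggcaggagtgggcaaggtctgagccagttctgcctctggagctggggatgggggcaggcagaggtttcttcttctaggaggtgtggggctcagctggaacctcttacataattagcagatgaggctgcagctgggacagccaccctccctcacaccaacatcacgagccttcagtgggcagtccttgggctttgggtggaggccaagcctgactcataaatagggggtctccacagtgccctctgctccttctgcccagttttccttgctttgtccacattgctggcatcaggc
Ano10: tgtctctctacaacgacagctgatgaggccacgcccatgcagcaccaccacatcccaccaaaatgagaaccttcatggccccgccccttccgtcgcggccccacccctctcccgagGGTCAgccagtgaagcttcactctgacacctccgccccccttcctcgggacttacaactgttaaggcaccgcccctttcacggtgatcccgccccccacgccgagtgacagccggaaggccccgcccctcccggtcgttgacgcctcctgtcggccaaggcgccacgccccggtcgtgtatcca
Mmp3: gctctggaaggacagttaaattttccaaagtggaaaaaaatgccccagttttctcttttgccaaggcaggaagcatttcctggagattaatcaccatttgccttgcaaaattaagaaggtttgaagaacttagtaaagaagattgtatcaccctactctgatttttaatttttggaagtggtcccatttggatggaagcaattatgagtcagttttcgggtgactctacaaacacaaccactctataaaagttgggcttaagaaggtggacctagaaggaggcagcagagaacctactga
Slc2a1: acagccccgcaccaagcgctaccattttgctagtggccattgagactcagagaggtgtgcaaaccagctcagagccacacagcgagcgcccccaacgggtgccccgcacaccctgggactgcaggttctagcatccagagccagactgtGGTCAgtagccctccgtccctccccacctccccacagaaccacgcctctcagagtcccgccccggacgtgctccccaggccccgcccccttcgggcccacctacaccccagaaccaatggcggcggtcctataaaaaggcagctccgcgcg
Ano10 and Slc2a1 each hold 1 half-site in this window, and the letters of a half-site are not present in the windows of Ptgds and Mmp3. Of the 25 genes of smallest p with or without estradiol replicate 33, 21 matched a RefSeq promoter and 9 of these (42.9%) held a half-site in at least 1 of their listed windows. Counted by window and not by gene, 40.5% of all 32851 promoter windows of 300 bases held one. The full palindrome GGTCANNNTGACC was found in 0 of the 21 genes and in 0.07% of all windows. A match describes letters and is not a site of receptor binding.

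Of the 20 genes of smallest p, 12 were higher and 8 lower with estradiol, where 60.5% of all genes with an unadjusted p under 0.05 were higher. Each of the 20 kept its direction without estradiol replicate 33. Ptgds, Ano10 and Mmp3 had the limma adjusted p values given above, and that of each of the other 17 was 0.925. Above the beta-titled group were also Asb11, a muscle-enriched member of the ankyrin repeat and SOCS box family (1.41-fold, 0.50 ± 0.13 SE), Calr3, a calreticulin-like protein (1.40-fold), Pcp4l1 (1.39-fold), Gstm2, a glutathione S-transferase (1.39-fold), Tmem107, a protein of the ciliary transition zone (1.31-fold), Trappc1, a subunit of a vesicle tethering complex (1.25-fold), Bace2, an aspartyl protease (1.23-fold), and Lipt1, a lipoyltransferase (1.18-fold). The difference for Asb11 rested on low beta-titled values: its estradiol mean of 12.07 lay 0.12 log2 units above placebo, and its beta-titled mean of 11.57 lay 0.38 below placebo. All 3 probe sets of Calr3 were higher with estradiol, by 0.36 to 0.48 log2 units. For Bace2 the 4 other probe sets differed by 0.02 to 0.18, less than the 0.30 of the one used. The lowest value of the estradiol arrays lay above the highest beta-titled value in 30 tested genes (0.248% of those tested), and the reverse held in 18 (0.149%).

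Lower with estradiol was Tmem100, a membrane protein of endothelium known to depend on BMP signalling through ALK1. Its log2 level was 8.80, 9.18, 8.74, 8.85 and 8.78 on the estradiol arrays and 8.96, 9.48, 9.51, 9.67 and 9.69 on the beta-titled arrays. Only beta-titled replicate 31 fell within the estradiol range, and placebo stood at 9.48 to 9.70. The difference was −0.59 ± 0.14 log2 units (SE; limma adjusted p = 0.925), and −0.56 without estradiol replicate 33. The other, dimmer probe set of Tmem100 had a difference of 0.08. Klf4, a zinc finger transcription factor, differed by −0.55 ± 0.14 (SE), with 8.72, 9.22, 8.21, 8.82 and 8.83 against 9.41, 9.43, 9.002, 9.44 and 9.27, and its other probe set differed by −0.46. Without estradiol replicate 33, the lowest of these values, the difference of the probe set used was −0.41. Rsrp1, an arginine- and serine-rich nuclear protein, had the largest negative difference of the 20 (−0.68 ± 0.19 SE), with values of 9.39 to 9.91 against 9.93 to 10.85 that did not overlap, although placebo at 9.64 to 10.92 spanned both groups. Meig1, known from spermatogenesis (−0.52), Serpini1, the protease inhibitor neuroserpin (−0.43), Lin7a, a scaffold protein (−0.32), Rgs6, a regulator of G protein signalling (−0.26), and Adamtsl3, a matrix-associated protein (−0.25), completed the 8.

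Without estradiol replicate 33, Slc2a1, the glucose transporter GLUT1, had the second smallest p. Its level was 8.80, 8.70, 8.34, 8.91 and 8.79 on the estradiol arrays and 8.18, 8.38, 8.36, 8.46 and 8.50 on the beta-titled arrays. Estradiol replicate 33 lay among the beta-titled arrays, and the other 4 lay above all of them. The difference over all arrays was 0.33 ± 0.10 log2 units (SE), or 1.26-fold (limma adjusted p = 0.925), and without that array it was 0.42 (95% interval 0.25 to 0.59), or 1.34-fold (limma adjusted p = 0.245). Its other probe sets differed by 0.33 and 0.21, and by 0.39 and 0.28 without that array. Spon1, a secreted matrix protein, read 8.91, 8.88, 8.37, 8.88 and 9.08 against 8.51, 8.42, 8.40, 8.71 and 8.39, with estradiol replicate 33 below and the other 4 above every beta-titled array. The difference was 0.34 ± 0.11 (SE) over all arrays and 0.45 without estradiol replicate 33 (limma adjusted p = 0.324). Its other probe sets differed by 0.01 to 0.16. Morn2, Pcp4l1, Mthfd1, a folate pathway enzyme, Tmem179b and Tmem107 were also among the 10 genes of smallest p in that fit, with differences of 0.29 to 0.56 log2 units. All 10 were higher with estradiol, as were 83.1% of all genes with an unadjusted p under 0.05 in that fit, and none passed. In that fit the groups did not overlap in 143 genes that were higher (1.18%) and in 41 that were lower (0.339%).

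Of the estrogen receptor genes, Esr1 read 6.86 to 6.93 on the estradiol arrays and 6.81 to 6.999 on the beta-titled arrays, and Esr2 read 6.41 to 6.53 and 6.50 to 6.67. Both lay below the expression filter (a mean over all arrays of 6.93) and were not tested, as were Pgr and Greb1, classical targets in the uterus and breast. Of 23 estrogen target genes known from other tissues 18 were tested. Of these 12 were higher and 6 lower with estradiol, with a median of 0.06 against 0.02 over all genes (−0.00 with 8 higher when beta-titled replicates 31 and 32 were left out), and 1 reached an unadjusted p under 0.05 (Ptgds, higher, as in 2.32% of all genes). Ptgds is also known from the heart, and the list was chosen with earlier results of these data known. Its place in the list is therefore no independent support. The median without estradiol replicate 33 was 0.10, with 13 higher (63.6% of all genes in that fit). An unadjusted p under 0.05 was then reached by 2 genes, Ptgds and Igfbp4, both higher (5.71% of all genes in that direction). Igfbp4, a binding protein of insulin-like growth factors, came next with 9.70, 10.04, 9.73, 9.90 and 10.54 against 9.95, 9.48, 9.33, 9.97 and 9.05 and a difference of 0.43 ± 0.21 (SE; limma adjusted p = 0.925). Receptor cofactors and estrogen-related receptors, with 10 of 16 tested, were 5 higher and 5 lower (median 0.03), with 8 higher and a median of 0.07 without estradiol replicate 33, and a median of −0.04 without beta-titled replicates 31 and 32.

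Of the 27 glucose uptake and insulin signalling genes, all tested, 19 were higher and 8 lower, with a median of 0.02, and 2 had an unadjusted p under 0.05, both higher (2.32% of all genes in that direction), Slc2a1 and Tbc1d4, a Rab regulator of transporter trafficking (0.22 ± 0.10 SE). Of the 27, 23 were higher without estradiol replicate 33 (median 0.08). After quantile normalization 10 were higher, and without beta-titled replicates 31 and 32 it was 9 (median −0.05). Slc2a4, the insulin-responsive transporter GLUT4, ranged from 10.71 to 11.28 with estradiol and 10.66 to 11.004 in the beta-titled group, a difference of 0.10 (95% interval −0.11 to 0.32) for which limma gave an adjusted p of 0.925. Genes of pyruvate dehydrogenase control were 7 higher and 4 lower (median 0.06, 0.10 without estradiol replicate 33 and −0.08 without beta-titled replicates 31 and 32). Pdk4, a kinase that inhibits pyruvate dehydrogenase, split the estradiol arrays around the beta-titled group. Replicates 29 and 30 stood at 13.92 and 13.85, the beta-titled arrays at 13.20 to 13.57, and replicates 33, 34 and 35 at 12.98, 12.58 and 12.58. The difference of the means was −0.17 ± 0.20 (SE; limma adjusted p = 0.925).

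Genes of energy production had mostly higher means with estradiol, and none passed. All 32 tested subunits of respiratory chain complexes I, III and IV had a positive difference, where 59.4% of all tested genes did, and without estradiol replicate 33 all 32 again did, against 63.6% of all genes. Their differences ran from 0.045 to 0.21 log2 units with a median of 0.14, against 0.02 over all genes, and 6 had an unadjusted p under 0.05, against 2.32% of all genes in that direction. All 16 tested citric acid cycle genes were also higher (median 0.14, 4 with an unadjusted p under 0.05), as were 14 of 15 glycolysis genes (median 0.14, 3 with an unadjusted p under 0.05). The 9 cardiomyocyte markers were all higher too (median 0.16), and 8 were without estradiol replicate 33 (median 0.06). After quantile normalization 5 of the 9 were higher (median 0.00), and without beta-titled replicates 31 and 32 all 9 were (median 0.08). Cox6a2, the muscle isoform of a cytochrome oxidase subunit, read 13.86, 14.02, 14.13, 13.98 and 13.99 on the estradiol arrays against 13.77, 13.53, 13.72, 13.99 and 13.91, a difference of 0.21 ± 0.075 (SE). Idh3g, a subunit of isocitrate dehydrogenase, read 12.80, 12.90, 12.95, 13.19 and 12.79 against 12.56, 12.42, 12.71, 12.81 and 12.77, a difference of 0.27 ± 0.09 (SE; limma adjusted p = 0.925 for both genes). Beta-titled replicate 32 gave the lowest value of both genes, and replicate 31 the next lowest of Idh3g only.

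Beta-titled replicates 31 and 32, the narrowest in spread of all 20 arrays, had the lowest levels of the respiratory chain and citric acid cycle lists. The mean level of the respiratory chain list, each gene taken relative to its mean over 20 arrays, was −0.21 and −0.31 on beta-titled replicates 31 and 32, −0.14, 0.04 and 0.08 on the other beta-titled arrays and −0.02 to 0.10 on the estradiol arrays. Estradiol replicate 33, the next narrowest (SD 1.34) and the array that stood apart from the other 19, read 0.02. Beta-titled replicate 33, at −0.14, had an SD of 1.42. Without replicates 31 and 32 the median difference was 0.04 for the respiratory chain (24 of 32 higher), 0.04 for the citric acid cycle (11 of 16 higher) and 0.09 for glycolysis (11 of 15 higher). The part of these arrays' spread in the result was not tested. After quantile normalization the medians were 0.03 and 0.08, with 27 of 32 and 14 of 16 higher. Over all tested genes divided by level into 4 bins of equal size, 65.9% of the bin of highest level were higher with estradiol (median 0.04), and without estradiol replicate 33 the share was 82.1% (median 0.10), against 43.2% in the lowest bin. Without beta-titled replicates 31 and 32 the median of the highest bin was −0.07. Against placebo, whose arrays both differences share, the respiratory chain median was −0.05 for estradiol and −0.18 for the beta-titled group.

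**Figure D3:**
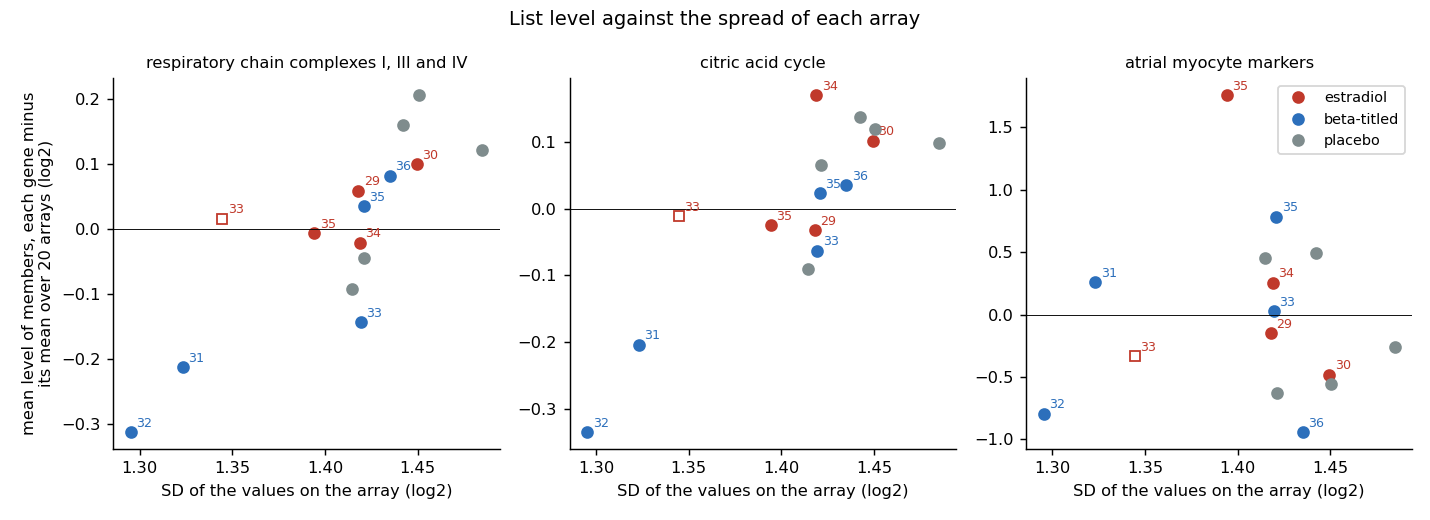
Each point is 1 array, with the SD of all values on the array on the x axis and the mean level of a gene list, relative to each gene's mean over 20 arrays, on the y axis (log2 units). Beta-titled replicates 31 and 32 combine the narrowest spread with the lowest respiratory chain and citric acid cycle levels, and estradiol replicate 35 has the highest level of atrial markers.

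Fatty acid uptake, oxidation and PPAR target genes were 21 higher and 5 lower of 26 tested (median 0.07). The 1 with an unadjusted p under 0.05 was Echs1, an enoyl-CoA hydratase (0.22 ± 0.09 SE; higher, as in 2.32% of all genes). Leaving out estradiol replicate 33 gave a median of 0.10, with 22 higher. At that level were then 2 genes, Echs1 and Cpt2, both higher (5.71% of all genes in that direction). The median was −0.01 after quantile normalization and −0.02 without beta-titled replicates 31 and 32. Sarcomere genes, all 22 tested, were 18 higher and 4 lower (median 0.09), of which Csrp3, Tnnc1 and Actc1 reached an unadjusted p under 0.05 with differences of 0.19 each (higher, as in 2.32% of all genes), and 1 of them, Csrp3, did so without estradiol replicate 33 (5.71% of all genes in that direction). After quantile normalization 11 of the 22 were higher. Actc1, cardiac actin, stood at 14.62 on estradiol replicate 33 against 14.23 to 14.33 on the other estradiol arrays, and its difference was 0.12 without that array. Myh6, the main myosin heavy chain of the mouse ventricle, differed by 0.01 ± 0.11 (SE) and was negative in 8 of the alternative settings, after quantile normalization among them. Myh7, the β myosin heavy chain, differed by −0.27 ± 0.22 (SE; limma adjusted p = 0.925), with 9.32 to 10.16 against 9.93 to 10.64.

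Among stress and stretch genes of the cardiomyocyte 13 of 15 tested were higher with estradiol (median 0.15; 0.23 without estradiol replicate 33, 0.08 without beta-titled replicates 31 and 32), and 2 had an unadjusted p under 0.05, both higher (2.32% of all genes in that direction). Nppb, which encodes B-type natriuretic peptide, read 12.96, 13.06, 12.70, 12.12 and 12.22 on the estradiol arrays and 12.56, 11.73, 12.29, 12.002 and 11.77 on the beta-titled arrays. Estradiol replicates 29, 30 and 33 were above every beta-titled array, and replicates 34 and 35 were inside their range. The difference was 0.54 ± 0.17 (SE), or 1.46-fold (limma adjusted p = 0.925). Placebo, at 12.35 to 12.90, lay with the estradiol arrays: estradiol minus placebo was 0.07 and beta-titled minus placebo was −0.47. Tnfrsf12a, the receptor of the cytokine TWEAK, differed by 0.42 ± 0.17 (SE), and stood at −0.34 for estradiol and −0.76 for the beta-titled group relative to placebo. Nppa, atrial natriuretic peptide, differed by 0.26 ± 0.19 (SE; limma adjusted p = 0.925). Calcium handling genes were 9 higher and 5 lower (median 0.09), with none at an unadjusted p under 0.05. Of 15 tested channel genes 10 were higher (median 0.06), and Kcnip2, a subunit of the transient outward potassium channel, differed by 0.34 ± 0.12 (SE). Its other, dimmer probe sets differed by 0.04 and −0.03.

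Extracellular matrix genes did not share a direction, with 12 higher and 16 lower of 28 tested (median −0.03; 0.02 without estradiol replicate 33 and 0.08 without beta-titled replicates 31 and 32). An unadjusted p under 0.05 was reached by 6 lower genes, against 1.51% of all genes in that direction, and by 1 higher gene, against 2.32%. The lower ones were Col8a1 (−0.37), Sparc (−0.29), Col5a2 (−0.29), Postn (−0.51), Fstl1 (−0.30) and Col3a1 (−0.45), which encode collagens and secreted matrix proteins, and the higher one was Timp1, an inhibitor of matrix proteases (0.27). Without estradiol replicate 33 only Sparc and Fstl1 of the 6 were left at that level, against 1.16% of all genes in that direction. Col8a1 read 8.67, 8.68, 8.00, 8.40 and 8.76 on the estradiol arrays against 8.88, 8.92, 8.84, 8.83 and 8.88, with no overlap, and Fstl1 did not overlap either (9.87 to 10.12 against 10.13 to 10.42). Over all tested genes 0.149% were lower without overlap. The other probe sets of Col8a1 differed by −0.17 and −0.04. Sparc, a collagen-binding glycoprotein, overlapped through beta-titled replicate 32: it read 11.27 to 11.57 with estradiol against 12.01, 11.36, 11.80, 11.83 and 11.75, and 2 of its 3 probe sets were lower, by −0.29 and −0.34. Col3a1, a fibrillar collagen, was 10.03 to 10.40 with estradiol, while the beta-titled arrays spread from 10.24 to 10.99 and placebo from 9.93 to 11.10. Its other probe set differed by −0.04.

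**Figure D4:**
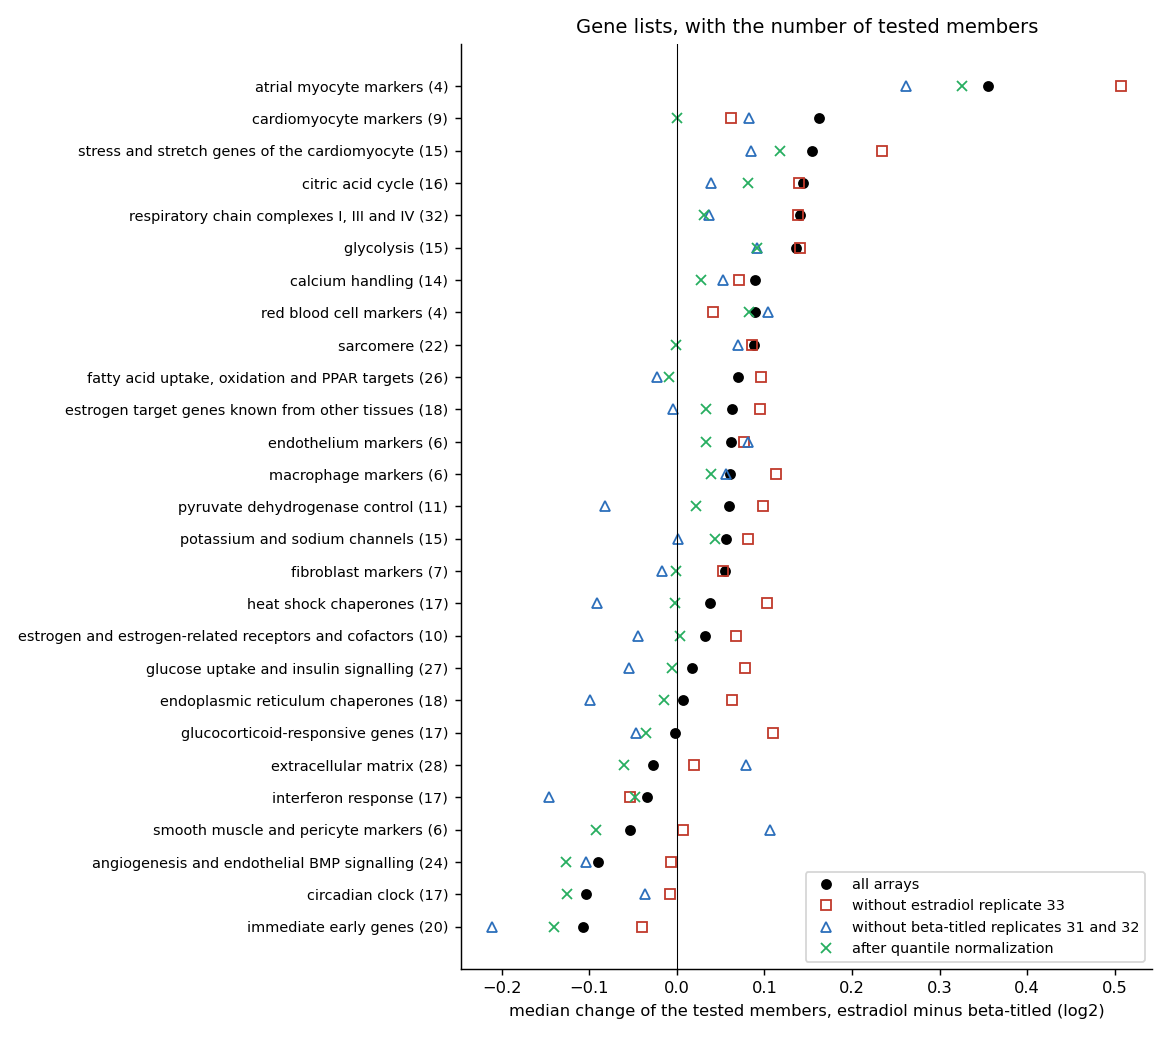
The x axis gives the median difference, estradiol minus beta-titled (log2), over the tested members of each gene list on the y axis, with all arrays (black), without estradiol replicate 33 (squares), without beta-titled replicates 31 and 32 (triangles) and after quantile normalization (crosses). The respiratory chain median moves from 0.14 to 0.04 without the 2 beta-titled arrays, and that of the immediate early genes is −0.11 over all arrays and −0.04 without estradiol replicate 33.

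Immediate early genes, which respond to stimuli within minutes, were 4 higher and 16 lower of 20 tested (median −0.11, and −0.21 without beta-titled replicates 31 and 32), and 2 had an unadjusted p under 0.05, both lower (1.51% of all genes in that direction), Klf4 and Klf2 (−0.35 ± 0.15 SE). On estradiol replicate 33 the list stood at −0.45 relative to each gene's mean, against −0.19 to −0.07 on the other estradiol arrays and −0.23 to 0.18 on the beta-titled arrays. Without it the median was −0.04, with 6 higher and 14 lower, and 1 gene, Klf4, had an unadjusted p under 0.05 (lower, as in 1.16% of all genes). Angiogenesis and endothelial BMP genes were 8 higher and 16 lower of 24 (median −0.09, −0.01 without estradiol replicate 33). With and without that array 1 had an unadjusted p under 0.05, Tmem100 (lower, as in 1.51% and 1.16% of all genes). Circadian clock genes were 6 higher and 11 lower of 17 (median −0.10, −0.01 without estradiol replicate 33). Per3 read 7.14, 7.37, 7.37, 8.01 and 7.84 on the estradiol arrays against 8.02, 8.12, 7.80, 7.95 and 8.03 (−0.44 ± 0.13 SE), Cry1 differed by −0.45 ± 0.17 (SE), and Nr1d1, a repressor of the clock loop, by 0.24 ± 0.10 (SE; limma adjusted p = 0.925 for each). The other probe sets of Per3, all dimmer, differed by −0.14 to 0.06. Per3 and Nr1d1 but not Cry1 had an unadjusted p under 0.05 without estradiol replicate 33, where 1.16% of all genes were lower and 5.71% higher at that level.

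Heat shock chaperones were 11 higher and 6 lower of 17 (median 0.04, 0.10 without estradiol replicate 33), with Dnaja1, a co-chaperone, at −0.46 ± 0.17 (SE). Endoplasmic reticulum chaperones were 10 higher and 8 lower (median 0.01, 0.06 with 12 higher without that array), with Hyou1 at −0.14 ± 0.07 (SE). The other probe sets of Hyou1 differed by 0.075 and −0.086. Glucocorticoid-responsive genes were 8 higher and 9 lower (median −0.00, 0.11 without estradiol replicate 33), with Lcn2, the iron-binding lipocalin 2, at 0.36 ± 0.16 (SE). Interferon response genes were 6 higher and 11 lower (median −0.03, −0.05 without estradiol replicate 33), with none at an unadjusted p under 0.05. Without beta-titled replicates 31 and 32 these 4 medians were −0.09, −0.10, −0.05 and −0.15.

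Markers of other cell types of the ventricle overlapped in level between the groups. Fibroblast markers averaged 10.55 to 10.78 with estradiol and 10.48 to 10.75 in the beta-titled group, endothelium markers 9.31 to 9.72 and 9.27 to 9.62, and macrophage markers 9.19 to 9.62 and 9.06 to 9.43. Of the 6 smooth muscle and pericyte markers 2 were higher (median −0.05, 0.01 without estradiol replicate 33 and 0.11 without beta-titled replicates 31 and 32), and Tagln, a smooth muscle actin-binding protein, did not overlap between the groups (9.63 to 9.80 against 9.24 to 9.56; 0.31 ± 0.10 SE, limma adjusted p = 0.925). Over all tested genes 0.248% were higher without overlap. The 4 atrial markers were all higher with estradiol (median 0.36; 0.51 without estradiol replicate 33 and 0.26 without beta-titled replicates 31 and 32), but without estradiol replicate 35 the median was −0.07 and 1 of the 4 was higher. Sln, sarcolipin, ran from 7.17 to 10.83 on the estradiol arrays and from 6.89 to 9.14 on the beta-titled arrays. Of lymphocyte markers 1 of 5 on the array, of Schwann cell markers 1 of 2, of adipocyte markers 2 of 4 and of mesothelium markers 0 of 4 passed the expression filter. All 4 tested red blood cell markers were higher (median 0.09; 0.04 without estradiol replicate 33, with 3 higher). Among them Hba-a1 had a mean over all arrays of 6.985, close to the expression filter. It differed by 0.11, and by −0.02 without estradiol replicate 33.

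Of the 5 genes with the largest differences over all arrays, Ano10 (0.82) was also among the 20 of smallest p, and the other 4 were not. Hspa1b, an inducible heat shock protein, differed by −0.89, Ppbp, a platelet chemokine, by −0.84, and S100a8 and S100a9, calcium-binding proteins of neutrophils, by 0.83 and 0.79, with unadjusted limma p of 0.0885, 0.204, 0.0421 and 0.0607. These were named after their values were seen. Only Ppbp exceeded a difference of 1 log2 unit without estradiol replicate 33 (−1.10), and no gene did over all arrays.

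What sets estradiol replicate 33 apart was described without a test. It was above the other 19 arrays for 2298 genes and below them for 4151. The genes farthest above the mean of the other estradiol arrays were Tmem229b (1.44 log2 units), Arfgef3 and Sstr3, a somatostatin receptor (1.41 each), 2900052N01Rik (1.40), Plekhh2 (1.35), Gpd1, glycerol-3-phosphate dehydrogenase (1.34), Syn2, a synaptic vesicle protein (1.34), and Ddr1, a collagen receptor (1.33). Tmem229b, for example, read 10.38 there and 8.878 to 8.997 on the other estradiol arrays. Farthest below were Vapb (−1.80), Zfp853 (−1.28), Clec2d (−1.25), Tnxb, a matrix glycoprotein (−1.24), Raly (−1.22), Lox, the collagen crosslinking enzyme, and Edn3, endothelin 3 (−1.16 each), and Glyctk (−1.11). Pgr, at 7.13 against 6.59 to 6.65 on the other estradiol arrays, was also highest there. Each of these genes was read from 1 probe set. For the genes farthest above or below, every other probe set changed less than the one used when estradiol replicate 33 was left out. Zfp853, Clec2d and Tnxb had no other. For Vapb the difference estradiol minus beta-titled went from −0.264 to 0.096 on the probe set used. Its others went from 0.02 to 0.089 and from 0.075 to 0.083. For Ddr1 it went from 0.257 to −0.009, and from 0.184 to 0.027 on another. For Gpd1 the difference estradiol minus beta-titled went from 0.23 to −0.03 without estradiol replicate 33 on the probe set used. On its others it went from −0.051 to −0.011, −0.039 to 0.031 and −0.05 to −0.07. The other probe sets of Tmem229b went from 0.091 to −0.05 and from −0.001 to −0.054.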

How the data were processed

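The deposited table holds log2 values, 1 for each of 45101 probe sets and 20 Affymetrix mouse arrays, per the values themselves. Per the labels' protocols, biotin-labelled cRNA was made from 100 ng total RNA. The log base was read from the range of the values, so folds rest on that reading; summarization and normalization by the authors count as not given in the sources used here. The 64 control probe sets did not enter. Of the others, 34945 carry 1 gene symbol in the platform annotation, 932 several and 9160 none, only the first of which served. The probe set of highest mean over all arrays stood for its gene, and 12082 of 18193 genes entered the test, those with a mean over 6.93, which is the probe sets' median. Of the 18193 genes, 18031 were found by gene ID in RefSeq (GRCm38.p6), and 0 symbols had to be changed.

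Limma 3.58.1 (R 4.3.3) was fitted to all 20 arrays (group means, eBayes with intensity trend, two-sided tests), and tested on simulated data. Array values were compared by an exact permutation test (252 splits, smallest possible p 0.00794). No signal of background probes was used, so levels near 7 are not separated from background, and the number of arrays limits the precision.

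The members and the gene lists were chosen with earlier results of these data known. Genes named were the 20 of smallest p over all arrays and the 10 without estradiol replicate 33 (fewer than 10 passed), up to 2 members of smallest p of each list, 15 genes always named, and the 8 farthest above and below in estradiol replicate 33. Further list members, and the genes of largest difference, were picked with their values in view. Other settings changed the filter, the probe set summary, scaling, array weights, the arrays fitted, the trend, the replicate number as a block, the threshold, and leaving out each array. Leaving out beta-titled replicates 31 and 32, and quantile normalization over 19 arrays, were chosen after seeing the data. Figures were drawn with matplotlib 3.10.9.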

Additional observations from a re-analysis of the deposited data

Results flagged for a closer look

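These values lay farther from the other 4 arrays of their group than Dixon's test allows at its 95% level. Chance flags about 1 in 20 groups, and 16 of the 168 gene and group pairs checked (84 genes, 2 groups) were marked. Some genes, Spon1 and Morn2 among them, were checked because their p was small without estradiol replicate 33. For these a mark on that array is partly built into the choice. Estradiol replicate 33 gave 10 of the marked pairs. It read low for Meig1 (6.47 against 7.11 to 7.29), Rgs6 (6.63 against 6.99 to 7.12), Spon1 (8.37 against 8.88 to 9.08) and Morn2 (8.24 against 8.49 to 8.52). It read high for Actc1 (14.62 against 14.23 to 14.33), Col1a1 (7.62 against 7.28 to 7.33), Cnn1, smooth muscle calponin (8.21 against 7.47 to 7.67), Hba-a1, an α-globin gene (7.55 against 6.82 to 6.99), Lep, leptin (7.98 against 7.18 to 7.31), and Hadhb, a β-oxidation enzyme (14.04 against 13.62 to 13.73). Its array median was 7.03 log2 units against 6.91 to 6.94, and its median Spearman correlation with the other arrays was 0.901 against 0.974 to 0.981.

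Estradiol replicate 34 stood apart for Trappc1 (10.22 against 9.83 to 9.87), Emcn, an endothelial sialomucin (9.56 against 9.81 to 9.90), Pdp2, a pyruvate dehydrogenase phosphatase (8.26 against 7.25 to 7.45), and the 3′ minus 5′ difference of Actb (0.22 against −0.03 to −0.00). Estradiol replicate 30 did so for Tmem100 (9.18 against 8.74 to 8.85). In the beta-titled group, replicate 35 was high for Myh7 (10.64 against 9.93 to 10.01), and replicate 33 was low for Cnn1 (7.49 against 7.56 to 7.58).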

How the results depend on the processing

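The number of genes past the threshold was 0 in each of the 33 alternative settings except without beta-titled replicate 35, when it was 1, so leaving out each array gave 0 to 1. The number with an unadjusted p under 0.05 was 463 over all arrays, 885 with no filter, which tests 18193 genes, 235 with only the compared groups in the fit, and 333 (without beta-titled replicate 32) to 830 (without estradiol replicate 33) when single arrays were dropped. Without estradiol replicates 29 and 30 it was 805 and 746, and without replicate 33 it was 830. With no filter 34.9% of those genes were higher with estradiol, and with array weights 79.8%. The titles share the numbers 33 and 35 between the groups, and over all groups same-numbered arrays deviated together no more than others (median r −0.02 over 17 pairs, −0.346 to 0.509), so the numbers were not taken as pairs. The lowest and the highest of these were the pairs of the compared groups, −0.346 for number 33 and 0.509 for number 35. They are too few to tell whether these groups were paired. With the replicate block 0 genes passed (smallest adjusted p 0.062) and 655 had an unadjusted p under 0.05, 276 of them higher.

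Of 84 named genes, 75 kept their sign in every setting run for them. Myh6 was −0.1404 with the mean of probe sets, −0.0897 after quantile normalization and −0.0578 with 19 arrays, −0.0195 after median centring, −0.0349 with the replicate block, and −0.074 (without estradiol replicate 30) to 0.066 (without replicate 35) when single arrays were dropped. Retn was −0.0085 after quantile normalization and −0.0996 with 19 arrays, −0.0227 after median centring, −0.0425 with array weights, −0.0594 with only the compared groups and no estradiol replicate 33, and −0.0594 to 0.0357 when single arrays were dropped. Hba-a1 was −0.0193 with only the compared groups and no estradiol replicate 33, and −0.0193 to 0.1616 when single arrays were dropped. Col1a1 was −0.0165 with the mean of probe sets, Atp2a2 −0.0027 after quantile normalization, and Gbp3 0.0404 with the replicate block. Myl4 ranged from −0.009 without estradiol replicate 35 to 0.5977 without beta-titled replicate 35. Pdhb was −0.0019 without beta-titled replicates 31 and 32 and −0.0129 after quantile normalization with 19 arrays, where Hadhb was −0.0153. The cause was not tested. A difference under about 0.21 log2 units is within the typical interval of these arrays.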

Other observations

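Probe sets without exactly 1 gene symbol were fitted separately. Of 2904 that lay above the expression filter, 0 passed the threshold with limma (smallest adjusted p = 0.856), and 73 had an unadjusted p under 0.05. Without estradiol replicate 33 these counts were 0 (smallest adjusted p = 0.969) and 127.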
